A study of Mus musculus with 12 samples.

Results

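The 10 genes described here encode transcriptional targets of fibroblast growth factor (FGF) signalling and of the kinase ERK. They are the Sprouty genes Spry1, Spry2 and Spry4, the related Spred1 and Spred2, the dual-specificity phosphatase genes Dusp4 and Dusp6, and the transcription factor genes Etv1, Etv4 and Etv5. They were taken by name, with all 17 probes that carry one of these names or an accession of the same gene, out of 21179 named genes and 41174 probes on the array. RNA came from mouse ES cells, which are embryonic stem cells, a pluripotent cell type derived from the early embryo and grown in culture. The cells of 1 group had received retinoic acid for 3 days to differentiate them, and those of the other were undifferentiated. Retinoic acid is made from vitamin A and acts through nuclear receptors. Each group had 3 biological samples, and each sample was hybridised to 2 technical 1-colour Cy3 arrays that were averaged. The labels used here give no ES cell line, genotype, dose of retinoic acid or culture medium, so it is not known whether the undifferentiated cells were kept with feeder cells, serum or kinase inhibitors. The labels call the samples biological replicates without saying what separated them, so the p-values measure only the spread between these samples.

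FGF binds receptor tyrosine kinases, and adaptor proteins then switch on RAS, which starts the kinase chain of RAF, MEK and ERK. Active ERK phosphorylates ETS transcription factors, and among the genes that follow are inhibitors of the same chain, which makes the pathway a negative feedback loop. In mouse ES cells FGF and ERK signalling is known for moving cells out of self-renewal and towards differentiation. Transcripts of this kind are therefore widely used as a readout of ERK activity. The arrays measured the transcripts, while ERK phosphorylation was not measured.

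Most of the feedback transcripts that differed were lower after retinoic acid, and Dusp6 was not among those. Spry4, Etv5, Etv4, Spry2 and Etv1 were lower, with differences of -4.64 to -1.65 on the log2 scale, Dusp6 was higher by 0.75, and Spry1, Spred1, Spred2 and Dusp4 did not pass the test. All 10 genes passed the filter on dim probes, which asks for 4 of 6 arrays of either group above background, and Spry4 passed it only through the undifferentiated arrays, where it is high. A gene counts as called here at an adjusted p under 0.05 in a limma fit of 15326 genes, each represented by its brightest probe. By this rule 5 of the 10 genes were called lower, where 13.6% of all genes tested were, and 1 was called higher, where 18.7% of all genes tested were. The median difference was -1.16 over the 10 genes and 0.0035 over all genes tested. All retinoic acid samples lay below all undifferentiated samples in 6 of the 10 genes, a pattern held by 20.8% of the genes tested, and above them in Dusp6, a pattern held by 25.7%. Levels are given as log2 of the quantile-normalized intensity after 50 was added, differences as retinoic acid minus undifferentiated on that scale, means with their SD (n = 3 samples) and differences with their SE. The addition understates the change of dim probes, and levels of different probes cannot be compared.

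**Figure D1:**
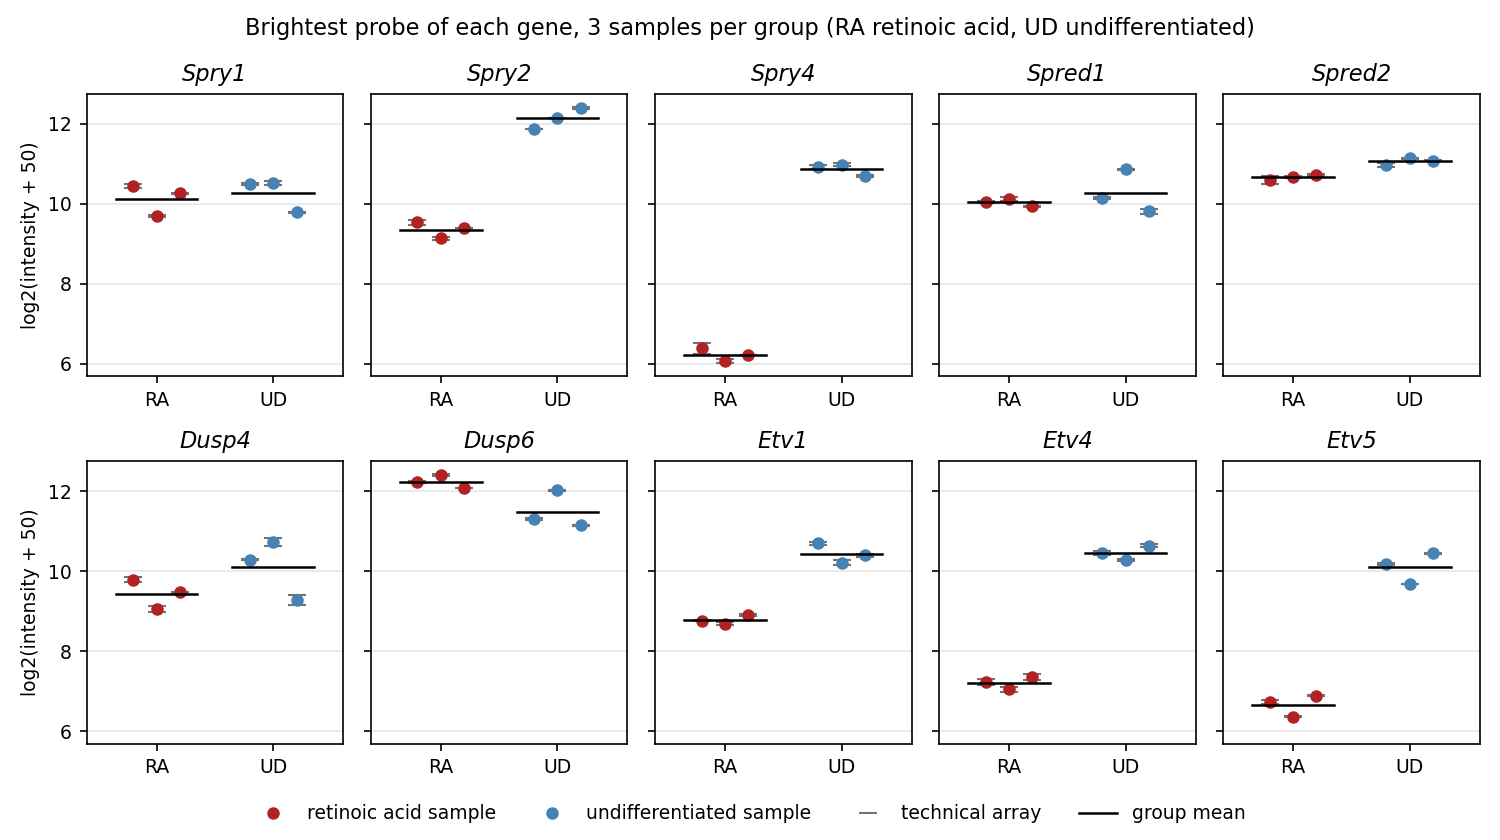
Level of each of the 10 genes in each sample, as log2 of intensity with 50 added, for the brightest probe. Red points are the 3 retinoic acid samples, blue points the 3 undifferentiated samples, grey ticks the technical arrays and black lines the group means. The groups stand far apart in Spry2, Spry4, Etv1, Etv4 and Etv5, overlap in Spry1, Spred1 and Dusp4, and the retinoic acid samples lie above in Dusp6.

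The promoters of 4 genes that were called are shown because Dusp6 was higher and the others lower after retinoic acid. The windows come from RefSeq (GRCm38.p6) and span 250 bases before to 50 after each transcription start. In all, 7 of the 10 genes had a window here, with 9 windows, and Spry4, Dusp4 and Etv4 had none. The selection of these windows left out 1 chromosome, a step not applied to the windows of all genes counted below. A gene without a window here may therefore still have one in RefSeq. Capitals mark the ETS core GGAA on either strand, which reads TTCC on the other strand. The Spry2 window lies at chr14:105896770-105897069 on the minus strand, that of Dusp6 at chr10:99262981-99263280 on the plus strand and window 1 of Etv1 at chr12:38779832-38780131 on the plus strand. Etv5 has window 1 at chr16:22438319-22438618 and window 2, further upstream, at chr16:22439521-22439820, both on the minus strand.
Spry2: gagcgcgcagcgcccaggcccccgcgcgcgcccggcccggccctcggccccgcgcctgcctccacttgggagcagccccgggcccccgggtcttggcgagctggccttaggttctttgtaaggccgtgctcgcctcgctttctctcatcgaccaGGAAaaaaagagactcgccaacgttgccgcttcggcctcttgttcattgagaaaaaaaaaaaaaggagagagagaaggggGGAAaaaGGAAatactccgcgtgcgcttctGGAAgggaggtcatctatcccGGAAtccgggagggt
Dusp6: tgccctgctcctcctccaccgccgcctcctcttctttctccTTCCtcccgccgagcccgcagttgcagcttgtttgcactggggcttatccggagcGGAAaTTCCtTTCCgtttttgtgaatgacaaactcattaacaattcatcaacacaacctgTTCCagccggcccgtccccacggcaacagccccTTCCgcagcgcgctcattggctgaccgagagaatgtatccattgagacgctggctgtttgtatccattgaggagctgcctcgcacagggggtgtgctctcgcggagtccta
Etv1 window 1: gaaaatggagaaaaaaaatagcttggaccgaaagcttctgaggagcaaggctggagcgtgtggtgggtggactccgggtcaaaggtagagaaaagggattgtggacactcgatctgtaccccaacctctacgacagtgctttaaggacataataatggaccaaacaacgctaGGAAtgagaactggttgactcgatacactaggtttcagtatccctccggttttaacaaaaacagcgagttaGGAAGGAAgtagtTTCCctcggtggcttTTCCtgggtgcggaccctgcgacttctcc
Etv5 window 1: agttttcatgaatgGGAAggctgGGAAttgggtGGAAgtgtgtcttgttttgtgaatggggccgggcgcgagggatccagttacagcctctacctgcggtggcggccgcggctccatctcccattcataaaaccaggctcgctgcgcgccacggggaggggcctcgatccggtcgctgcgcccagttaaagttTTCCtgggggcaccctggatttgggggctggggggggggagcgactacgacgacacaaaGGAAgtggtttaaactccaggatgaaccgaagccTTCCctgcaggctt
Etv5 window 2: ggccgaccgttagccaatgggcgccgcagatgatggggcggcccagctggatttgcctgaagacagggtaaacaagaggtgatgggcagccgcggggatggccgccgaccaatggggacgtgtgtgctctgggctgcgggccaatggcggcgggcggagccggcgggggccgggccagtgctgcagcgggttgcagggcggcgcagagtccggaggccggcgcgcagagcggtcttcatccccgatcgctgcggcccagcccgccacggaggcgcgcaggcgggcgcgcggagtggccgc

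The short ETS core was present 5 times in the Spry2 window, 6 times in that of Dusp6, 5 times in window 1 of Etv1 and 6 times in window 1 of Etv5. It was absent from window 2 of Etv5. In Dusp6, 3 of its matches stand close together, at -154, -149 and -144 from the start. The windows not printed held 1 match in Spry1, 5 in Spred1, 7 in Spred2 and 1 in window 2 of Etv1. Such short letters are common: 96% of the 32851 windows of all genes held at least 1 match, with a median of 3. The longer ETS motif CCGGAAGT, searched on both strands and containing the core, was in 3.89% of all windows and in none of the 9. The AP-1 motif TGACTCA (5.2% of all windows) and the cyclic AMP response element TGACGTCA (1.79%) were also in none of the 9. Retinoic acid receptors bind repeats of the hexamer AGGTCA, and the direct repeats with 5 or 2 bases between, DR5 and DR2, were each in 3 of the 32851 windows and in none of the 9. The hexamer alone, which both repeats contain, was in 16.3% of all windows and among the 9 only in that of Spry2. These matches describe letters in a short window and nothing more. Spry2, Etv1 and Etv5, which were called lower, and Dusp6, which was called higher, each had 1 window with at least 5 ETS cores. So did Spred1 and Spred2, which were not called. The share of all windows with as many was not counted.

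Sprouty proteins are cytoplasmic inhibitors that act on the chain from receptor tyrosine kinases to ERK. The 3 Sprouty genes differed in size, with Spry4 and Spry2 far lower after retinoic acid and Spry1 close to its level in undifferentiated cells. Spry4 had levels of 6.38, 6.06 and 6.22 in retinoic acid samples, against 10.92, 10.97 and 10.68 in undifferentiated samples. The groups were separated by a wide gap. The difference was -4.64 ± 0.16 (SE), or 24.9-fold lower with the 50 added, with an adjusted p of 3.9e-06 in the limma fit over genes. Without the addition the normalized intensity averaged 25.1 ± 8.4 in retinoic acid samples and 1816 ± 195 in undifferentiated samples (SD, n = 3 each). In retinoic acid cells the probe was above the background limit on 3 of 6 arrays, so its level there is close to what the arrays can resolve. The size therefore depends on the added value, and the difference was -6.18 with 1 in place of 50.

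Spry2 had levels of 9.53, 9.13 and 9.40 in retinoic acid samples, against 11.87, 12.14 and 12.40 in undifferentiated samples. Every retinoic acid sample was lower than every undifferentiated sample, by more than 2 log2 units. The difference was -2.78 ± 0.19 (SE), or 6.89-fold lower, with an adjusted p of 4.79e-05 in the limma fit over genes. Spry1 had levels of 10.44, 9.68 and 10.25 in retinoic acid samples, against 10.50, 10.51 and 9.78 in undifferentiated samples. The groups overlapped, with 1 low sample in each. The difference was -0.14 ± 0.27 (SE), with an adjusted p of 0.754 in the limma fit and an unadjusted 95% confidence interval of -0.77 to 0.50. The interval allows changes of that size in either direction.

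Spred proteins are Sprouty relatives that recruit the RAS inactivator neurofibromin to the membrane. Neither gene was called. Spred2 had levels of 10.59, 10.66 and 10.72 in retinoic acid samples, against 10.97, 11.14 and 11.08 in undifferentiated samples. The groups did not overlap, but the gap was small. The difference was -0.40 ± 0.14 (SE), with an adjusted p of 0.0637 in the limma fit and an unadjusted interval of -0.73 to -0.07. It was called lower under 4 of 21 alternatives, among them scaling to the 75th percentile or to the median of each array. Spred1 had levels of 10.04, 10.12 and 9.93 in retinoic acid samples, against 10.14, 10.86 and 9.81 in undifferentiated samples. The retinoic acid samples lay within the range of the undifferentiated ones, whose second sample was high. The difference was -0.24 ± 0.26 (SE), with an adjusted p of 0.545 in the limma fit and an interval of -0.85 to 0.37.

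Dusp6 encodes a cytoplasmic phosphatase with a strong preference for ERK, and Dusp4 a nuclear phosphatase that acts on ERK and on other MAP kinases. Dusp6 had levels of 12.22, 12.40 and 12.09 in retinoic acid samples, against 11.30, 12.02 and 11.15 in undifferentiated samples. All retinoic acid samples were above all undifferentiated samples, but the second undifferentiated sample came close to the lowest of them. The difference was 0.75 ± 0.24 (SE), or 1.68-fold higher with the 50 added, with an adjusted p of 0.0492 in the limma fit over genes. In the fit over probes the same difference had an adjusted p of 0.0605 and was not called. The call was close to the threshold and was lost under 15 of 21 alternatives, with differences from 0.43 to 1.02 and adjusted p from 0.00449 to 0.291 over all of them. It was lost without any 1 of the retinoic acid samples and without undifferentiated sample 1 or 3, with adjusted p from 0.0951 to 0.147. Without undifferentiated sample 2 the difference was 1.02, with an adjusted p of 0.00449. The difference remained above 0 in every one of these fits. Scaling to the 75th percentile gave 0.43 and scaling to the median 0.46, and these scalings moved the median of all genes to -0.087 and -0.061.

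Dusp4 had levels of 9.78, 9.05 and 9.47 in retinoic acid samples, against 10.28, 10.73 and 9.27 in undifferentiated samples. The groups overlapped because the third undifferentiated sample was low. The difference was -0.66 ± 0.37 (SE), with an adjusted p of 0.218 in the limma fit over genes and an interval of -1.52 to 0.20. Without undifferentiated sample 3 the difference was -1.07, with an adjusted p of 0.0213, and the gene was called lower. Undifferentiated sample 3 had background limits of 51.6 and 44.1 on its arrays, against 8.50 to 20.0 on the arrays of the other undifferentiated samples, and retinoic acid arrays had limits from 12.6 to 45.7. The part of that background in the result was not tested.

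Etv1, Etv4 and Etv5 form the PEA3 group of ETS transcription factors, activators whose transcripts follow FGF and ERK signalling in many embryonic tissues. All 3 were called lower after retinoic acid. Etv5 had levels of 6.73, 6.36 and 6.88 in retinoic acid samples, against 10.18, 9.69 and 10.45 in undifferentiated samples. Its difference was -3.45 ± 0.24 (SE), or 10.9-fold lower, with an adjusted p of 4.62e-05 in the limma fit over genes. No sample came near the other group. Etv4 had levels of 7.23, 7.05 and 7.35 in retinoic acid samples, against 10.46, 10.28 and 10.64 in undifferentiated samples. Its difference was -3.25 ± 0.17 (SE), or 9.5-fold lower, with an adjusted p of 1.56e-05 in the same fit. The Etv4 probe and the brighter Etv5 probe remained above background on 6 of 6 retinoic acid arrays, so both transcripts were still measured there by these probes.

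Etv1 had levels of 8.76, 8.68 and 8.91 in retinoic acid samples, against 10.69, 10.21 and 10.40 in undifferentiated samples. The groups were well separated. The difference was -1.65 ± 0.17 (SE), or 3.14-fold lower, with an adjusted p of 0.000341 in the limma fit over genes. Of the 5 genes called lower, Etv1 thus had the smallest difference and Spry4 the largest. As normalized intensity without the addition, Etv4 averaged 98.6 ± 15.5 in retinoic acid samples and 1363 ± 176 in undifferentiated samples (SD, n = 3 each). Etv5 averaged 52.1 ± 18.3 in retinoic acid samples and 1077 ± 287 in undifferentiated samples. Etv1 averaged 392 ± 35.1 in retinoic acid samples and 1349 ± 237 in undifferentiated samples.

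Technical error was small beside these differences. The 2 technical arrays of a sample differed by a median of 0.02 to 0.13 per probe on the log2 scale, and by at most 0.35, in the dimmer Spry2 probe of retinoic acid sample 1. The brightest spot of any of the 17 probes had an intensity of 6827 before normalization, far below the brightest spot of each array, at 42952 to 49949.

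Of the 10 genes, 6 had more than 1 probe, and probes of a gene share its transcript, so they are not independent samples. In a limma fit over 26587 probes, 8 of the 17 probes were called lower and 0 higher, where 11.5% and 14.0% of all probes tested were. The other 9 were not called. Of the 17 probes, 4 passed the filter only through the undifferentiated arrays, both of Spry4 and the dimmest of Spred1 and Etv5, so the count called lower is partly set by the filter. At an unadjusted p under 0.05 the same fit gave 1 of the 17 higher, that of Dusp6. The dimmer Etv5 probe had levels of 6.14, 6.20 and 6.08 in retinoic acid samples, against 8.51, 7.67 and 8.27 in undifferentiated samples. It had a difference of -2.02 and an adjusted p of 0.000693. With 2 of 6 retinoic acid arrays above background it passed the filter only through the undifferentiated arrays, so this is a description and not added support. The dimmer Spry4 probe had levels of 5.79, 5.80 and 5.66 in retinoic acid samples, against 6.38, 6.38 and 6.32 in undifferentiated samples. It was above background on 0 of 6 retinoic acid arrays and on 4 of 6 undifferentiated arrays, so only a bound can be given: it was at least 1.31-fold lower, with an adjusted p of 0.0163 in the limma fit. Having passed the filter only through the group where it is high, it adds no support to the brighter probe. This bound sets the bright group's normalized mean against each dim array's lowest signal above background, or the probe's own where that was higher. The call was lost without retinoic acid sample 1 or 3 or undifferentiated sample 1, with differences of -0.56 to -0.63 and adjusted p of 0.0525 to 0.087.

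The probes of Spry2 and Dusp4 gave unlike sizes. The dimmer Spry2 probe had levels of 8.24, 8.79 and 8.43 in retinoic acid samples, against 9.74, 9.55 and 8.80 in undifferentiated samples. The groups did not overlap, but the third undifferentiated sample lay just above the highest retinoic acid sample. The difference was -0.88 ± 0.27 (SE) with an adjusted p of 0.0521, against -2.78 for the brighter probe. The dimmer Dusp4 probe had levels of 7.55, 7.34 and 7.63 in retinoic acid samples, against 9.59, 10.01 and 7.94 in undifferentiated samples. It was called lower where the brighter probe was not, with a difference of -1.67 ± 0.48 (SE) and an adjusted p of 0.039 in the limma fit over probes. The third undifferentiated sample was low for both Dusp4 probes. The call of the dimmer one was lost without any 1 of the other 5 samples, with adjusted p of 0.0807 to 0.128. Without undifferentiated sample 3 its difference was -2.30, with an adjusted p of 0.000606.

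The dimmer Spred1 probes differed by -0.50 and -0.28, with adjusted p of 0.231 and 0.394. The dimmer Spred2 probe differed by -0.48, with an adjusted p of 0.38 and levels of 7.35, 6.94 and 7.57 in retinoic acid samples, against 8.14, 6.93 and 8.21 in undifferentiated samples. None of these 3 probes was called. In all 6 genes every probe had a difference below 0. When the probes of a gene were averaged, the difference was -1.83 for Spry2, -2.62 for Spry4 and -2.73 for Etv5, and these calls were kept.

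**Figure D2:**
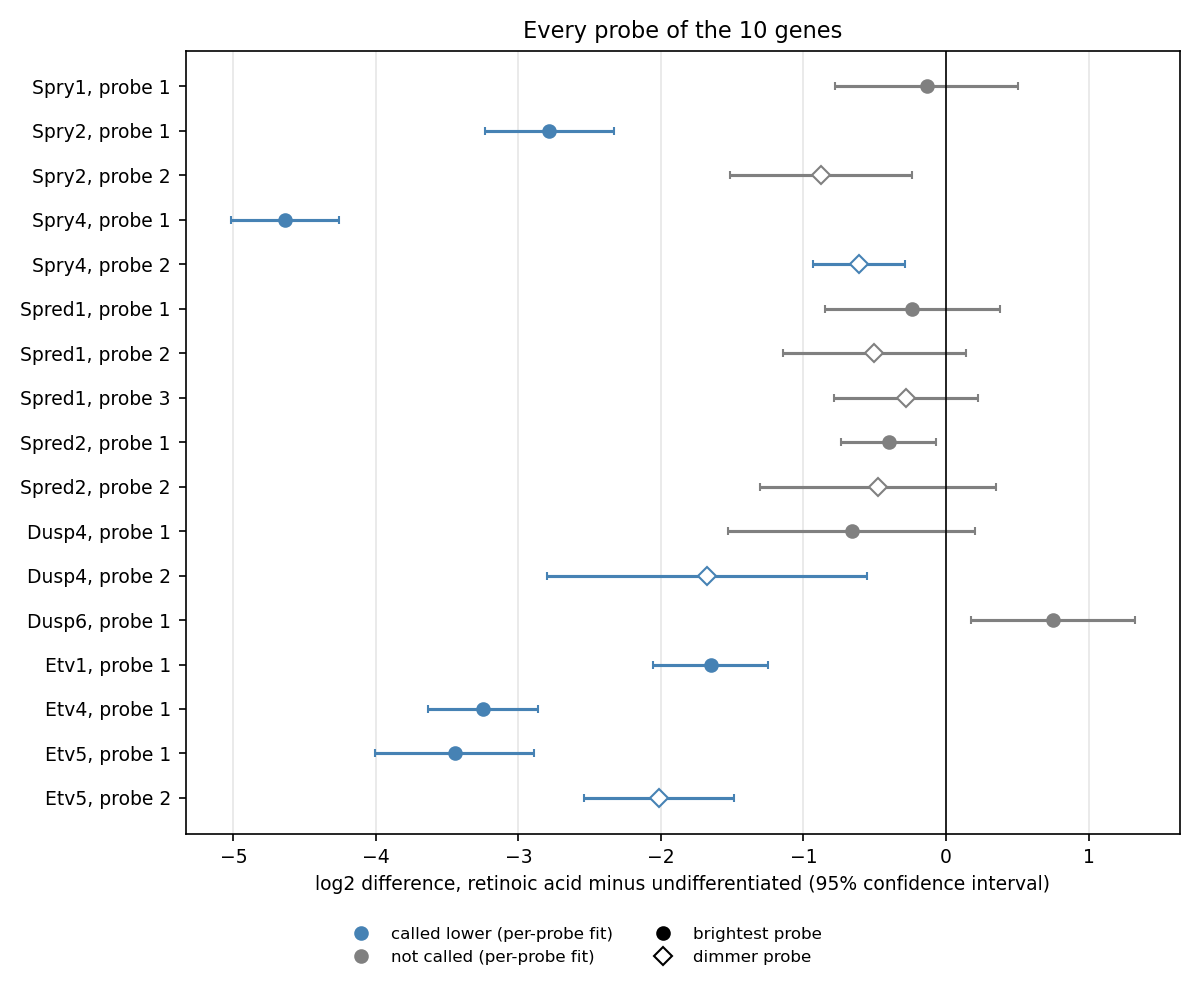
Difference of each of the 17 probes, retinoic acid minus undifferentiated, in log2 intensity with 50 added; bars are 95% confidence intervals from the limma fit over probes. Circles are the brightest probe of a gene and diamonds dimmer ones, blue where called lower. The brightest probes of Spry4, Etv5, Etv4, Spry2 and Etv1 lie from -4.64 to -1.65, and the interval of Dusp6 runs from 0.18 to 1.32 although it was not called in this fit.

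Dusp6 was the only 1 of the 10 genes called higher. Likeness was measured as the Pearson correlation of levels over the 6 samples, which fall into 2 groups, so it mostly follows the group difference. Among all genes tested with regular symbols, the 5 whose levels followed Dusp6 most closely by this measure were Wipf3 (0.9986), Rap1gds1 (0.9974), Snhg18 (0.9966), Galnt2 (0.9965) and Svop (0.9964). They shared with Dusp6 a difference above 0, from 0.47 for Galnt2 to 0.88 for Rap1gds1, a direction set by the way they were picked. Wipf3 and Rap1gds1 were called higher, with adjusted p of 0.0485 and 0.0349 in the limma fit. Snhg18, Galnt2 and Svop were not called.

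The rest of the pathway was set beside these genes through lists of ligands, receptors, cascade members and targets. Of 17 FGF ligands listed, 16 were on the array, 1 was not analysed here and 8 passed the filter. Of these 2 were called higher and 1 lower, against 18.7% and 13.6% of all genes tested, and the median difference was 0.27. Fgf13, an intracellular FGF relative that does not signal through FGF receptors, was higher by 0.96 ± 0.19 (SE), with an adjusted p of 0.00607, while its 3 dimmer probes tested were not called. Fgf9, a secreted ligand, was higher by 0.70 ± 0.16 (SE), with an adjusted p of 0.0127, and by 0.51 on its second probe. Its brightest probe was above background on 6 of 6 retinoic acid arrays and 2 of 6 undifferentiated arrays, so it passed the filter only through the group where it is high. Without retinoic acid sample 1 the adjusted p of Fgf9 was 0.0534. Fgf18, another secreted ligand, fell by 0.80 ± 0.17 (SE), with an adjusted p of 0.0101. Fgf5 and Fgf8, ligands of the early embryo, had differences of 0.29 and -0.13 and were not called.

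Of the FGF receptors and co-receptors, 6 of 7 passed the filter. Of these 3 were called higher and 0 lower, against 18.7% and 13.6% of all genes tested, and the median difference was 0.46. None was below an unadjusted p of 0.05 in the lower direction. Fgfr2, a receptor with a kinase domain, was higher by 1.93 ± 0.16 (SE), with an adjusted p of 0.000103 and levels of 10.61 ± 0.09 in retinoic acid samples and 8.69 ± 0.19 in undifferentiated samples (SD, n = 3 each). Its second tested probe differed by -0.56, with an adjusted p of 0.0794, so the probes disagree. Fgfrl1, an FGF receptor relative without a kinase domain, was higher by 1.61 ± 0.26 (SE), with an adjusted p of 0.00282. Klb, the co-receptor of endocrine FGFs, was higher by 0.76 ± 0.16 (SE), with an adjusted p of 0.00824. It was above background on 6 of 6 retinoic acid arrays and 3 of 6 undifferentiated arrays, and so likewise passed the filter only through the group where it is high. Fgfr1, a major FGF receptor of ES cells, differed by -0.28 ± 0.38 (SE) and was not called, nor were its 3 other probes tested.

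All 25 genes of the RAS to ERK cascade passed the filter. Of these 4 were called higher and 2 lower, against 18.7% and 13.6% of all genes tested, and the median difference was 0.11. The median turned to -0.04 and -0.02 with scaling to the 75th percentile and to the median, and to -0.0048 without retinoic acid sample 1, and the count called lower was 0 with 1 or 10 added before log2. Rps6ka3, a kinase activated by ERK, was higher by 2.80 ± 0.30 (SE), with an adjusted p of 0.000343, and by 2.12 on its second probe. Sos2, an activator of RAS, was higher by 1.35 ± 0.22 (SE), with an adjusted p of 0.00303. Nf1, which encodes the RAS inactivator neurofibromin that Spred proteins recruit, was higher by 1.06 ± 0.27 (SE), with an adjusted p of 0.0194. Without retinoic acid sample 1 or 3 its adjusted p was 0.0654 or 0.0794, and its second probe, at 0.84, was not called. The docking protein gene Gab1 fell by 0.63 ± 0.19 (SE) and the MEK gene Map2k1 fell by 0.49 ± 0.16 (SE), with adjusted p of 0.0368 and 0.0491. Each of these calls was lost without any 1 of 5 samples, with adjusted p up to 0.133 for Gab1 and 0.167 for Map2k1. They were kept only without undifferentiated sample 3 for Gab1 and without undifferentiated sample 2 for Map2k1. Mapk3, which encodes an ERK kinase, was not called, with a difference of -0.08 and an adjusted p of 0.904 in the limma fit.

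The transcripts of immediate early genes appear within minutes of ERK activation. The list used here also holds Srf, Elk1, Elk3 and Elk4, so its counts and median are not those of immediate early genes alone. Of 18 listed, 15 passed the filter, 3 were called higher and 1 lower, and the median difference was -0.24. The count called higher was near the background share of 18.7%, and 13.6% of all genes were called lower. Fosl2, a FOS family gene, exceeded the background limit on 0 of 6 undifferentiated arrays. It was at least 5.55-fold higher after retinoic acid, with an adjusted p of 0.000265, but had passed the filter only through the group where it is high, while its second tested probe differed by -0.50 and was not called. Ier5 was higher by 1.45 ± 0.22 (SE), with an adjusted p of 0.00202. Srf, the serum response factor gene, was higher by 0.86 ± 0.21 (SE), with an adjusted p of 0.0172. Its call was lost without retinoic acid sample 1 or 3 or undifferentiated sample 1, with adjusted p of 0.0549 to 0.0694. Myc fell by 0.71 ± 0.23 (SE), with an adjusted p of 0.0469, and this call was lost without any 1 of 5 samples (all but undifferentiated sample 3), with adjusted p of 0.0558 to 0.13. Of its other probes 1 was called lower, at -0.70, and 1 was not, at -0.32. The classical targets Fos and Egr1 differed by -0.32 and -0.72, with adjusted p of 0.145 and 0.0705. In both, every retinoic acid sample lay below every undifferentiated sample, a pattern held by 20.8% of all genes tested. Junb, named after its values were seen, differed by -0.53 with an adjusted p of 0.0525 and was not called. Its second probe was called lower in the fit over probes, at -1.14.

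Among other feedback genes of ERK and of receptor tyrosine kinases, Flrt3, Phlda1, Errfi1 and Spry3 were called higher. Of 16 listed, 15 passed the filter. Of these 4 were called higher and 0 lower, against 18.7% and 13.6% of all genes tested. At an unadjusted p under 0.05 in limma 0 were lower as well, and the median difference was 0.40. These counts use the brightest probe of each gene. The second probe of Sh2b3, a gene of this list, was called lower in the fit over probes, at -0.63. Flrt3, a membrane protein that binds FGF receptors, had levels of 11.90, 11.87 and 12.09 in retinoic acid samples, against 7.52, 7.72 and 7.57 in undifferentiated samples. It was higher by 4.35 ± 0.15 (SE), with an adjusted p of 3.9e-06, and by 4.05 on its second probe. Phlda1 was higher by 3.74 ± 0.22 (SE), with an adjusted p of 2.63e-05. Errfi1, an inhibitor of the epidermal growth factor receptor family, was higher by 2.73 ± 0.19 (SE), with an adjusted p of 4.81e-05. The remaining call was Spry3, the fourth Sprouty gene, named after its values were seen, which was higher by 0.80 ± 0.21 (SE), with an adjusted p of 0.0202. Its call was lost without any 1 of the retinoic acid samples, with adjusted p of 0.0531 to 0.0729. Il17rd (Sef), a feedback inhibitor that acts on FGF receptors and ERK, was also named after its values were seen and differed by -0.23 with an adjusted p of 0.407.

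Other MAP kinase phosphatases and ETS factors were set beside Dusp4, Dusp6 and the 3 Etv genes. Of 9 phosphatase genes listed, 1 was not analysed here and 8 passed the filter. Of these 3 were called higher and 0 lower, against 18.7% and 13.6% of all genes tested. At an unadjusted p under 0.05 in limma 0 were lower as well, and the median difference was 0.27. Dusp14 was higher by 1.80 ± 0.18 (SE), with an adjusted p of 0.000252, and by 1.56 on its second probe. Dusp10, which acts mainly on JNK and p38, was higher by 0.98 ± 0.16 (SE), with an adjusted p of 0.00308. Dusp2 was higher by 0.65 ± 0.15 (SE), with an adjusted p of 0.0122, and without retinoic acid sample 1 the adjusted p was 0.0533. Dusp8, named after its values were seen, differed by 0.12 on its brightest probe and was not called. Of its dimmer probes 1 was called higher in the fit over probes, at 1.79, and 1 was not, at 0.94. Of 12 other ETS genes, 8 passed the filter. Of these 3 were called higher and 2 lower, beside the same shares of all genes, and the median difference was 0.26. The median turned to -0.09 without the filter on dim probes and to -0.20 when all 12 arrays had to be above background, where 1 was called higher and 2 lower. Ets1 was higher by 2.25 ± 0.17 (SE), with an adjusted p of 7.42e-05, but its other 3 probes differed by -0.16, -0.03 and 0.57, of which the last was called higher. Etv6, a repressor, was higher by 1.24 ± 0.16 (SE), with an adjusted p of 0.000943, and by 0.81 on its second probe. Erg exceeded the background limit on 0 of 6 undifferentiated arrays and was at least 2.25-fold higher, with an adjusted p of 0.00799, but it too had passed the filter only through the retinoic acid arrays. Etv2 fell by 0.91 ± 0.15 (SE), with an adjusted p of 0.0033, and Gabpa fell by 0.69 ± 0.17 (SE), with an adjusted p of 0.017. The Gabpa call was lost without retinoic acid sample 3 or undifferentiated sample 1, with adjusted p of 0.0772 and 0.0623, while its 2 other probes were called lower in the fit over probes, at -1.06 and -1.09.

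**Figure D3:**
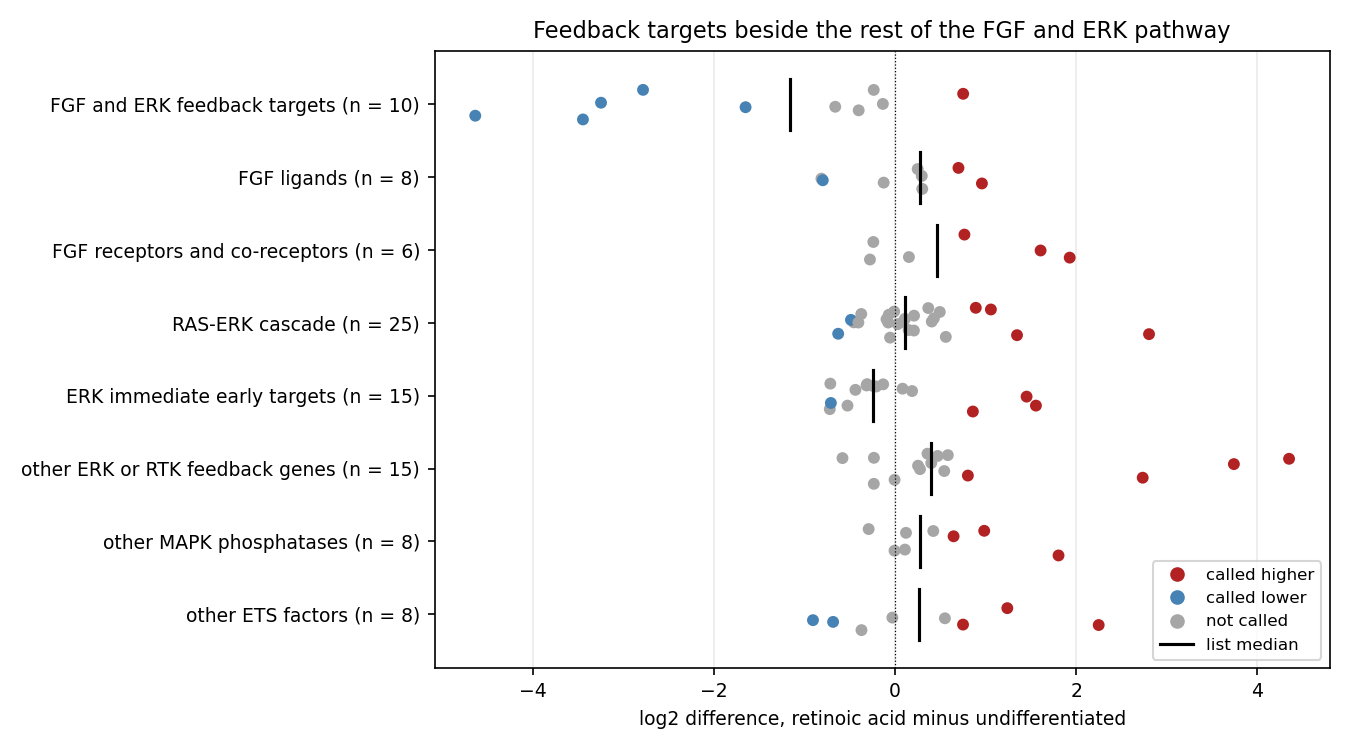
Difference of every gene that passed the filter, retinoic acid minus undifferentiated in log2 intensity with 50 added, for the 10 feedback targets and 7 lists of the pathway. Each point is a gene, red where called higher, blue where called lower and grey where not called, and black lines are list medians. The median of the 10 feedback targets is -1.16, while those of the other lists lie between -0.24 and 0.46.

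Transcripts that mark cell state were set beside the feedback targets. The median difference was -3.88 for the pluripotency list and 5.89 for the retinoic acid response. It was 1.98 for primitive endoderm, 2.39 for trophoblast, 1.65 for fibroblast and -0.13 for neural progenitor markers. Of all genes tested, 18.7% were called higher and 13.6% lower. The pluripotency genes tested were all called lower, 8 of 8, with a summed intensity of 5591 to 6611 in retinoic acid samples and 80458 to 112310 in undifferentiated samples, and none of them was at background in either group. Of 9 genes of the retinoic acid response, 6 were called higher, with sums of 93661 to 114494 in retinoic acid samples and 6968 to 18979 in undifferentiated samples, and Rarb, Stra6 and Hoxb1 were not called, although the second Rarb probe was called higher in the fit over probes, at 0.94. Of 9 primitive endoderm markers, 5 were called higher and 1 lower, with sums of 9470 to 13235 in retinoic acid samples and 2105 to 3387 in undifferentiated samples. Gata4, a defining marker, was not called. Of 8 trophoblast markers tested, 5 were higher and 1 lower. Their sums were 48964 to 57440 in retinoic acid samples and 4352 to 6088 in undifferentiated samples. Bright probes weigh most in such sums, here those of Krt18 and Krt8, with mean levels of 15.03 and 14.05 in retinoic acid samples. Krt7, Gata3 and Cdx2 were also called higher, Tfap2c had a difference of -3.08, and Eomes and Hand1 were not called. The trophoblast marker Elf5 was above background on 0 of 12 arrays. Of 8 fibroblast markers tested, 5 were higher and 1 lower, with sums of 35407 to 43847 in retinoic acid samples and 8483 to 18951 in undifferentiated samples, and Postn was above background on 0 of 6 retinoic acid arrays. Of 8 neural progenitor markers, 2 were higher and 1 lower. Their sums were 3786 to 4157 in retinoic acid samples and 2662 to 3592 in undifferentiated samples. Of the called markers, Cyp26b1, Cdx2, Zic1 and Neurod1 passed the filter only through the group where they are high, so their calls add no support. Among these markers the calls of Lama1 (lower), Vim (higher) and Neurod1 (lower) were lost under 16, 12 and 3 of the alternatives. The part of other cell types in the values of the feedback targets was not tested, and in such bulk RNA fewer cells that carry a transcript and less of it per cell cannot be told apart.

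Across arrays the median intensity ran from 37.4 to 96.6, the background limit from 8.50 to 51.6, and probes above that limit made up 53.8% to 85.0% of all probes. Technical arrays of a sample correlated at 0.9865 to 0.9973. The differences of the 5 genes called lower kept their direction and their call under every alternative that could test them, 21 for Spry2, Etv1, Etv4 and Etv5 and 20 for Spry4. They ranged from -2.99 to -1.83 for Spry2, from -6.18 to -2.62 for Spry4, from -1.77 to -1.52 for Etv1, from -3.78 to -3.16 for Etv4 and from -4.37 to -2.73 for Etv5.

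**Figure D4:**
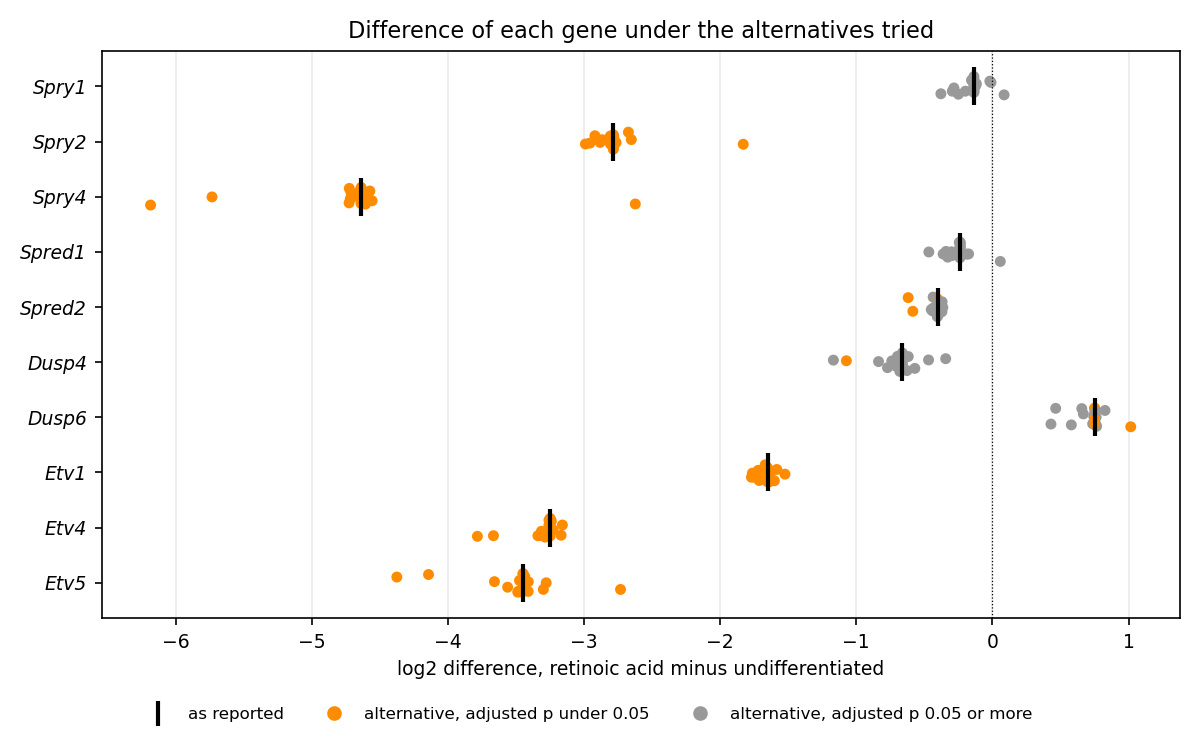
Difference of each of the 10 genes under the alternatives tried, retinoic acid minus undifferentiated in log2 intensity. Black bars are the reported values, and points are alternatives, orange where the adjusted p was under 0.05 and grey otherwise. Spry2, Spry4, Etv1, Etv4 and Etv5 are orange throughout, while Dusp6 is grey in most alternatives and lies between 0.43 and 1.02.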

How the data were processed

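Total RNA of 6 samples was amplified and labelled with Cy3, per the labels. The deposited scanner tables hold a net intensity per spot, not log-transformed, per the file headers, so local background had been taken off by the authors' software; the method was not given in the sources used here. The authors also deposited processed intensity values, used as an alternative, and limma with R 2.15.0 is named in the submitters' processing notes. The header of undifferentiated sample 2, technical array 2, names the other technical array of that sample, so it was left out in 1 alternative.

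Probes were named through RefSeq's gene table (GRCm38.p6); the sources used here do not give the array's own build. Intensities of the 12 arrays were quantile-normalized and turned into log2 values after 50 had been added. The background limit of an array was the 95th percentile of its 27 negative control spots, and a probe was tested when it exceeded this limit on 4 of 6 arrays of either group. Groups were compared over 3 against 3 samples in limma 3.58.1 under R 4.3.3 by lmFit with no covariates and a two-sided eBayes test, with Benjamini-Hochberg adjustment over all genes or probes tested; calls are at an adjusted p under 0.05. The fit was tested on simulated data, but the outcome is not given here and adds no support to the calls. Figures used Python 3.11.15 and matplotlib 3.10.9. The number of samples, 3 per group, limits the precision.

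The 10 genes and all lists were chosen with earlier results of these data known. Genes named beside the 10 are up to 3 called genes of each list in each direction by size, the 5 most like Dusp6, and others where the text says so. Fgf5, Fgf8, Fgfr1, Mapk3, Fos and Egr1, which were not called, are named for their role. The 21 alternatives were 2 other scalings, the authors' values, 1 or 10 added before log2, 2 other filters, the mean of a gene's probes, either technical array, a random block per sample over all 12 arrays, leaving out the array of doubtful header, the replicate block, a variance trend with robust estimation, a threshold of 0.01 on the adjusted p, and leaving out each sample in turn. Protein comparisons that had been planned were not made.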

Additional observations from a re-analysis of the deposited data

How the results depend on the processing

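No direction of a called result was turned by any of the 21 alternatives. The number of feedback genes called lower was 5 as reported, 6 with either other scaling (75th percentile, median), without a filter on dim probes, with the sample as a random block and without undifferentiated replicate 3, and 4 when every array had to be above background, where Spry4 was not tested. The number called higher was 1 (Dusp6) as reported, and 0 with either of these scalings, with 1 or 10 added before log2, without a filter, with a filter on all 12 arrays, with technical array 1 only or 2 only, without technical array 2 of undifferentiated sample 2 and at an adjusted p under 0.01. With 1 sample left out it ranged from 0 to 1 and was 1 only without undifferentiated replicate 2. Over all genes, an adjusted p under 0.01 gave 1784 higher and 1114 lower, against 2872 and 2083. With 1 sample left out the genes called higher numbered 2007 to 3148 and those called lower 1228 to 2108, the lowest without retinoic acid replicate 3 and the next, 1326, when replicate 1 of that group was left out; the cause was not tested. Scaling to the 75th percentile gave 2440 higher and 2637 lower, and scaling to the median 2372 and 2243. Correlations of deviations were -0.06, 0.22 and 0.07 between samples of the same replicate number, and from -0.255 to 0.256 between samples of unlike number. The arrays of replicate 3 had the highest median intensities of their group before normalization. These were 67.0 and 67.3 in undifferentiated and 96.6 and 93.5 in retinoic acid samples. Whether samples of the same number share a batch was not tested. With the replicate block 2849 genes were higher and 2040 lower, with 1 feedback gene higher and 5 lower. Signals near background limit Spry4 and Etv5 in retinoic acid cells.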

Other observations

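Some pathway transcripts varied more within a group than between groups, and they were picked here after their values were seen. Fgf17, a secreted FGF ligand, had log2 levels of 12.60, 9.42 and 10.60 in retinoic acid samples 1, 2 and 3, against 9.35, 12.33 and 10.04 in undifferentiated samples 1, 2 and 3. Sh2b3, an adaptor protein gene, had levels of 12.49, 8.76 and 10.09 in the retinoic acid samples, against 8.53, 11.77 and 9.43 in the undifferentiated samples. In both genes retinoic acid sample 1 and undifferentiated sample 2 were the highest of their groups. Dusp1, an immediate early phosphatase gene, had levels of 9.04, 9.02 and 11.29 in retinoic acid samples, against 10.13, 10.18 and 9.91 in undifferentiated samples. The third retinoic acid sample stood apart there, and none of the 10 feedback genes showed a spread of that size in its brightest probe.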
